A study of Mus musculus with 16 samples.

Results

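The Obox genes (oocyte-specific homeobox genes) were followed in mouse two-cell embryos across 4 groups of arrays. Members were all probe sets whose platform annotation names an Obox gene, including those annotated to several Obox genes. This gave 6 of the 45037 probe sets that are not array controls. They cover 5 genes, with 1 probe set each for Obox3 (1452634_at), Obox5 (1436741_at) and Obox6 (1440257_at), 2 for Obox2 (1456017_x_at and 1456305_x_at) and 1 annotated to both Obox1 and Obox2 (1453090_x_at). All 6 passed the filter on low intensity. Obox7 is annotated to no probe set, and its expression was not analysed here.

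Total RNA was labelled with biotin and hybridised to 16 one-colour arrays, 4 in each group. Amanitin-treated BCB and untreated BCB embryos carried a C3H maternal pronucleus in B6 ooplasm beside a B6 paternal pronucleus. Amanitin-treated BBB and untreated BBB embryos were B6 in the ooplasm and in both pronuclei. All groups thus share B6 ooplasm and a B6 paternal pronucleus, and C3H and B6 (C57BL/6) are inbred mouse strains. The drug was α-amanitin (α-amantin in the labels), which inhibits RNA polymerase II, and the labels state neither its dose and timing nor the number of embryos per sample. Nothing says whether the 4 samples of a group came from separate collections, so p-values measure the spread between these samples, which may be technical. Fewer embryos in a sample and less RNA per embryo cannot be told apart.

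OBOX proteins are homeodomain transcription factors of the bicoid type, related to CRX and OTX. In the mouse, some family members are stored in the oocyte as maternal transcripts (Obox1, Obox2, Obox5 and Obox7), whereas Obox3 and the Obox4 copies are transcribed when the embryonic genome switches on at the two-cell stage. Mouse OBOX factors act together in zygotic genome activation, and Obox6, which is expressed in preimplantation embryos, has also been used to improve reprogramming of somatic cells to pluripotency.

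All 6 protein-coding Obox genes in RefSeq (GRCm38.p6) lie on chromosome 7, in the order Obox7, Obox2, Obox1, Obox3, Obox5 and Obox6, followed by the related homeobox genes Crx and Crxos. RefSeq also lists 47 Obox pseudogenes, 38 of them named for Obox4 and 8 for Obox3, and 45 of the 47 are on chromosome 7. Probe sets ending in x_at hold probes that can bind several related transcripts, so the 3 such Obox probe sets may read Obox1, Obox2, Obox7 or a pseudogene together, and their gene names are uncertain.

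The promoters of Obox3, Obox5 and Obox1 are shown because the probe sets annotated to these neighbouring genes differed widely under amanitin, as described further on. The probe set of Obox1 is also annotated to Obox2, so the response of Obox1 alone is not known. Each has 300 bases from RefSeq, build GRCm38.p6, with 250 before and 50 from the annotated start (base 251), and is written 5′ to 3′ on the strand of the gene. Obox3 lies at chr7:15639728-15640027 on the minus strand, Obox5 at chr7:15750120-15750419 on the plus strand and Obox1 at chr7:15547007-15547306 on the plus strand. Capitals mark the longest run common to the 5 Obox promoters in the table (Obox1, Obox2, Obox3, Obox5 and Obox7), 25 bases that occur in 0 of the other 32846 promoters. No promoter of Obox6 was listed, so it was neither compared nor searched for motifs.
Obox3: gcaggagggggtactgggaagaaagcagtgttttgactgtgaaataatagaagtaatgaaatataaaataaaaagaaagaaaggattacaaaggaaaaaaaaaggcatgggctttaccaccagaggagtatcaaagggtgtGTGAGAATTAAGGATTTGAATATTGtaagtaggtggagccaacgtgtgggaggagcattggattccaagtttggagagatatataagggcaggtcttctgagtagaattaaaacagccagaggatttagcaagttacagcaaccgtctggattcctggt
Obox5: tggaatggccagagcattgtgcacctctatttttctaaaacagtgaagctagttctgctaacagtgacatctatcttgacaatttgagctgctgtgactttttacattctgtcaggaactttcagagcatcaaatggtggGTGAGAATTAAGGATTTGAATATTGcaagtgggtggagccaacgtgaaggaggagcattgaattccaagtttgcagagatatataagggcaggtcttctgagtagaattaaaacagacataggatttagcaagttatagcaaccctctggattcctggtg
Obox1: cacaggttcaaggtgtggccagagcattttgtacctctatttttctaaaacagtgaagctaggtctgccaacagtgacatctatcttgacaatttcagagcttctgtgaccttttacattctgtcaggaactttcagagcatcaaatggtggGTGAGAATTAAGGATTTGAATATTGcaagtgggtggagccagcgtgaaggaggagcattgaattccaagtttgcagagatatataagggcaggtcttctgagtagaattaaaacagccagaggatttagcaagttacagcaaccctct

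Obox3 was like Obox1 and Obox5 on the 3′ side of the shared run and unlike them on its 5′ side. In the 100 bases that follow the run, Obox3 matched Obox5 at 92 bases and Obox1 at 93, and Obox1 matched Obox5 at 97. For Obox2 only 26 bases follow the run, of which Obox3 matched 21 (80.8%). In the 100 bases before it, a gapped alignment of Obox1 and Obox5 had 94 identical positions in 102 columns (92.2%), with an identical run of 41 bases. The same alignment of Obox3 had 55 identical positions in 123 columns with Obox1 (44.7%) and 56 in 123 with Obox5 (45.5%), with no identical run longer than 6 bases. Obox2 equalled Obox1 at all 100 bases before the run, and Obox7 equalled Obox1 at 94.0% of columns. A second run of 42 bases, spanning the annotated start, is common to Obox1, Obox3, Obox5 and Obox7 and occurs in 0 of the other 32846 promoters. Whether Obox2 holds it could not be seen, since its listed promoter ends before that place.

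Of the motifs searched on both strands, the bicoid-type motif TAATCC was found in Obox3 alone of the 5 Obox promoters, at bases 83 to 88 on the minus strand, and it occurs in 7.06% of all 32851 promoters of the same length. The letters TATAAA, the usual form of a TATA box, were likewise found in Obox3 alone, at bases 62 to 67, far before the annotated start, and occur in 13.6% of all promoters. The related letters TATATAA, searched after the promoters had been read, lie closer to the start, within the run of 42 bases, in Obox1 (bases 232 to 238), Obox3 (221 to 227), Obox5 (220 to 226) and Obox7 (246 to 252), and occur in 3.24% of all promoters. The listed Obox2 promoter does not reach that place. CCAAT, the NF-Y motif, occurs in 37.4% of promoters and was found in Obox2, Obox3 and Obox7. Counted from the run in capitals, the matches in Obox2 (bases 16 to 20 and 87 to 91) and Obox7 (4 to 8) lie far upstream. The listed Obox1 and Obox5 promoters do not reach those places, so whether they hold CCAAT there could not be seen. The NOBOX motif TAATTG (8.0% of promoters) was in none of the 5, nor was a longer DUX-type motif (0.207%). No matches overlapped, and a match is a description of the letters and not of a bound site.

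The first comparison asks which Obox transcripts need the embryo's own transcription, in BCB and in BBB embryos. Obox3 and Obox6 lost nearly all of their signal with amanitin in both kinds of embryo. Obox5, Obox1/Obox2 and Obox2 were between 2.29 and 3.94 times as bright in amanitin-treated as in untreated embryos, relative to the scale of each array. All 6 probe sets passed an adjusted p of 0.05 (limma, Benjamini-Hochberg over all 31953 probe sets tested), 4 higher and 2 lower with amanitin in each kind. Among all probe sets, 37.6% were called higher and 30.3% lower in BCB embryos, and 34.3% higher and 31.9% lower in BBB embryos, so a call as such is common here. The treated and untreated arrays of a kind did not overlap for any of the 6, nor for 33.0% (higher) and 27.8% (lower) of all probe sets in BCB and 30.9% and 29.1% in BBB.

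**Figure D1:**
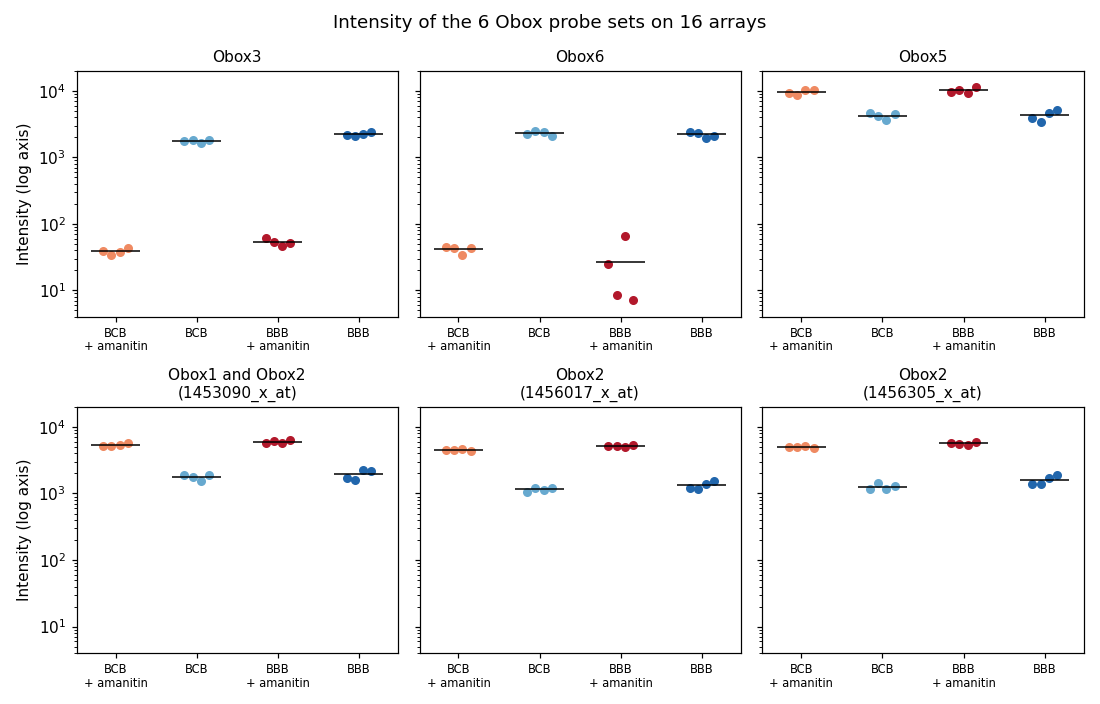
Intensity (log axis) of each Obox probe set on every array, in the groups BCB with amanitin, BCB, BBB with amanitin and BBB; points are the 4 arrays of a group and lines are their means. Obox3 and Obox6 lie between 7.3 and 64.7 with amanitin, against 1615 to 2498 without it, and the other 4 probe sets lie higher with amanitin, with no overlap within a kind.

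Obox3, which the embryo itself transcribes in two-cell embryos, had intensities of 39.5, 33.5, 38.1 and 43.4 in amanitin-treated BCB embryos, against 1738, 1818, 1615 and 1819 in untreated BCB embryos. In BBB embryos it had 61.6, 54.1, 47.0 and 51.7 with amanitin, against 2178, 2118, 2277 and 2401 without it. Every treated array lay far below every untreated array, and the treated mean was 2.21% of the untreated mean in BCB and 2.39% in BBB. The log2 change was −5.01 ± 0.10 (SE) in BCB embryos (adjusted p 8.959e-21) and −5.02 ± 0.10 in BBB embryos (adjusted p 1.106e-20, limma).

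Obox6, the family member used in reprogramming, had 45.3, 43.3, 34.0 and 42.9 in amanitin-treated BCB embryos, against 2209, 2498, 2444 and 2080.1 in untreated BCB embryos. In BBB embryos it had 24.9, 8.4, 64.7 and 7.3 with amanitin, against 2429, 2355, 1956 and 2077 without it. Groups of a kind did not overlap, and the treated mean was 1.79% of the untreated mean in BCB and 1.19% in BBB. The values 8.4 and 7.3 were the 2 of 16 that lay below their array's 40th percentile, the level of the filter, so the size of the fall in BBB is set by signal near the dim end of the arrays. The log2 change was −5.34 ± 0.24 in BCB (adjusted p 3.332e-15) and −5.90 ± 0.24 in BBB (adjusted p 5.583e-16, limma). With a pseudocount of 1 in place of 16 these changes were −5.77 and −6.85.

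The falls of Obox6 and Obox3 were among the largest on the arrays. In BCB embryos 0.235% of probe sets had a lower change than Obox6 and 0.325% a lower change than Obox3, and in BBB embryos 0.072% and 0.319% did. The median change of all tested probe sets was 0.16 in BCB and 0.09 in BBB.

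**Figure D2:**
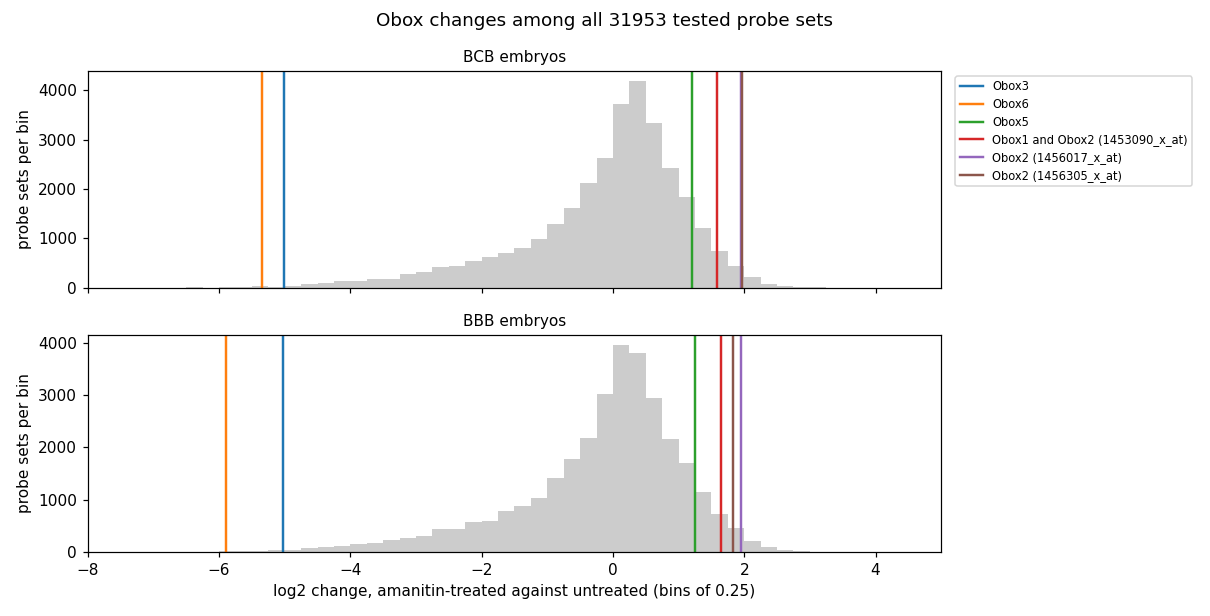
Number of probe sets per bin of log2 change with amanitin (grey bars), for BCB embryos above and BBB embryos below, with a vertical line at each Obox probe set. Obox6 and Obox3 stand in the far left tail (−5.90 to −5.01), and the other 4 Obox probe sets on the right side of the distribution (1.20 to 1.97).

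Obox5, a maternal member of the family, had 9297, 8687, 10354 and 10382 in amanitin-treated BCB embryos, against 4614, 4155, 3619 and 4489 in untreated BCB embryos. In BBB embryos it had 9490.2, 10344, 9379 and 11355 with amanitin, against 3909, 3438, 4709 and 5143 without it. All treated arrays were brighter than all untreated ones, and the means were 9679.9 ± 833 against 4219 ± 445 in BCB (SD, n = 4 each) and 10142 ± 917 against 4299.7 ± 769 in BBB. The log2 change was 1.20 ± 0.10 (SE) in BCB (adjusted p 2.665e-10) and 1.25 ± 0.10 in BBB (adjusted p 1.245e-10, limma).

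The probe set of Obox1 and Obox2, both known as oocyte transcripts, had 5243, 5118, 5433 and 5653 in amanitin-treated BCB embryos, against 1902, 1764, 1524 and 1926 in untreated BCB embryos. In BBB embryos it had 5839, 6149, 5709 and 6375 with amanitin, against 1704, 1603, 2276 and 2175 without it. The groups did not overlap within a kind, and the log2 change was 1.59 ± 0.10 in BCB (adjusted p 6.154e-13) and 1.64 ± 0.10 in BBB (adjusted p 3.302e-13, limma).

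Both probe sets of Obox2 alone gave the 2 largest rises in the family. The first, 1456017_x_at, had 4443, 4530.1, 4744 and 4304 in amanitin-treated BCB embryos, against 1068, 1216, 1110.4 and 1203 in untreated BCB embryos, and 5167, 5140.2, 4974 and 5414 in amanitin-treated BBB embryos, against 1193, 1181, 1412 and 1563 in untreated BBB embryos. Its log2 change was 1.96 ± 0.08 in BCB (adjusted p 8.436e-16) and 1.95 ± 0.08 in BBB (adjusted p 9.459e-16, limma). The second, 1456305_x_at, averaged 5017 ± 151 against 1274 ± 127 in BCB (SD, n = 4 each) and 5658 ± 287 against 1590.0 ± 263 in BBB, with log2 changes of 1.97 ± 0.09 and 1.83 ± 0.09. Neither overlapped between treated and untreated arrays of a kind. Of all probe sets, 98.7% had a lower change than 1456017_x_at in each kind, against 90.3% (BCB) and 91.5% (BBB) for Obox5.

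**Figure D3:**
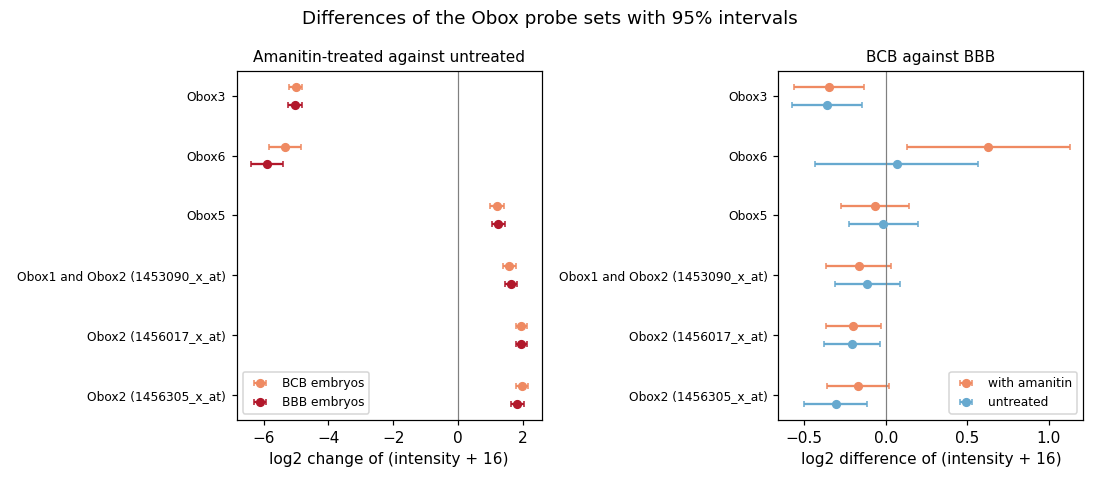
Log2 differences of intensity + 16 with 95% intervals for the 6 Obox probe sets. On the left, amanitin-treated against untreated embryos of each kind, with Obox3 and Obox6 near −5 to −6 and the others between 1.20 and 1.97; on the right, BCB against BBB with and without amanitin, where Obox3 lies at −0.35 and −0.36.

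The rise of the 4 probe sets is relative to array scale, and its direction depends on that scale. Added control transcripts moved with the treatment. The poly-A controls, which are added before labelling, were higher on treated arrays by 1.88 in BCB and 1.86 in BBB embryos on the log2 scale, and the hybridization controls by 0.81 and 0.56. On a scale set by the poly-A controls, the median change of all probe sets became −1.02 in BCB and −1.09 in BBB. Obox5 then fell by 0.68 in BCB (adjusted p 0.0009366) and by 0.61 in BBB (adjusted p 0.002587, limma), Obox1/Obox2 was at −0.28 and −0.21 (adjusted p 0.1725 and 0.303), and the Obox2 probe sets were at 0.09 and 0.10 in BCB and 0.10 and −0.02 in BBB, none of which passed. Relative to the median of all probe sets under that scale, Obox5 was 0.34 and 0.48 higher, Obox1/Obox2 0.74 and 0.88, and the Obox2 probe sets 1.07 to 1.19. Scaled to the hybridization controls, all 4 stayed called as higher, at 0.39 (Obox5) to 1.17 in BCB and 0.70 (Obox5) to 1.40 in BBB.

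Obox3 and Obox6 were lower under every scale tried, at −6.51 and −6.84 in BCB and −6.62 and −7.27 in BBB with the poly-A controls. The part of the control transcripts' shift in the Obox values was not tested.

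**Figure D4:**
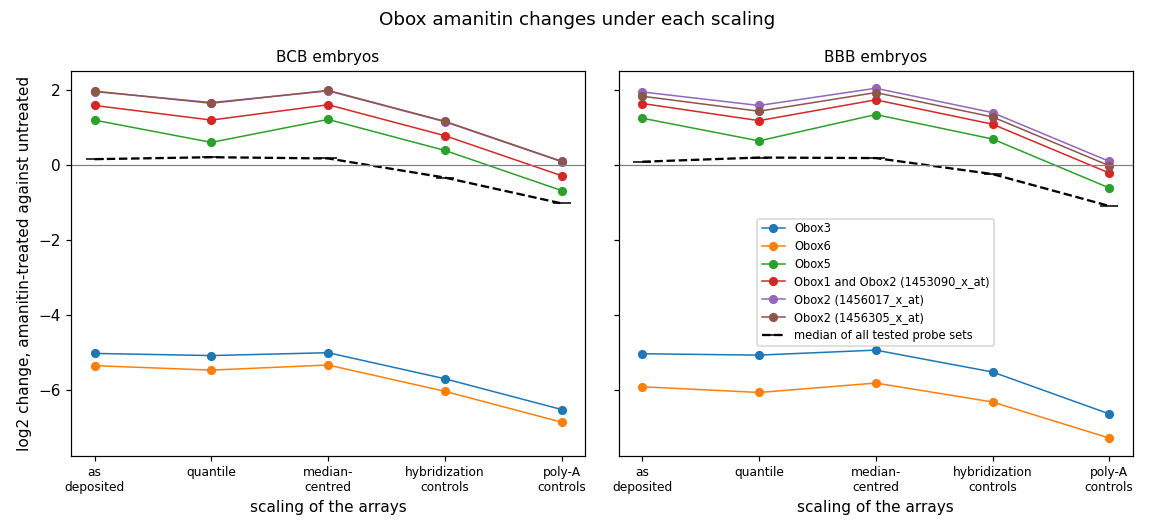
Log2 change with amanitin of each Obox probe set (coloured lines) and the median of all tested probe sets (dashed line) under 5 scalings of the arrays, for BCB embryos on the left and BBB embryos on the right. Obox3 and Obox6 stay below −4.9 throughout, whereas the other 4 probe sets come down to between −0.68 and 0.10 with the poly-A controls, above the median in each case.

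Ratios of 2 Obox probe sets on the same array, taken on intensity + 16, by construction depend less on array scale than the changes themselves. The change of such a ratio is the difference of the 2 changes given above, so it restates them and is no separate evidence. Since 2 probe sets also differ in their own response, only the change of a ratio was read. The log2 ratio of Obox5 over Obox3 averaged 7.47 (7.39 to 7.58) in amanitin-treated BCB embryos and 1.26 (1.16 to 1.40) in untreated BCB embryos, a difference of 6.21. In BBB embryos it averaged 7.19 (6.94 to 7.39) with amanitin and 0.92 (0.69 to 1.09) without it, a difference of 6.27. Among the higher members, Obox5 over Obox2 (1456017_x_at) averaged 1.10 with amanitin and 1.86 without it in BCB, and 0.97 and 1.67 in BBB, with no overlap. Across the 5 scalings the change of Obox5 minus that of Obox3 was 5.68 (quantile normalization) to 6.21 in BCB and 5.70 (quantile normalization) to 6.27 in BBB. The change of Obox5 stayed below that of both Obox2 probe sets under these scalings, by a size that depended on scaling and probe set. It was −0.76 in BCB and −0.70 in BBB against 1456017_x_at and −0.77 and −0.59 against 1456305_x_at, and with quantile normalization −1.06 and −0.94, and −1.04 and −0.79.

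The second comparison asks whether the strain of the maternal pronucleus goes with the level of an Obox transcript. In untreated embryos, 0 of the 6 probe sets passed an adjusted p of 0.05 between BCB and BBB (limma), where 0.613% of all probe sets passed, and 3 had an unadjusted p under 0.05. Obox3 differed most. Its mean was 1747 ± 96.3 in BCB and 2243 ± 124 in BBB (SD, n = 4 each), so BCB had 77.9% of the BBB level, and all 4 BCB arrays lay below all 4 BBB arrays, as 3.55% of probe sets did. The log2 difference was −0.36 (95% interval −0.57 to −0.14) with an adjusted p of 0.1748. It passed in 4 alternatives, with quantile normalization (−0.44, adjusted p 0.04335), a pseudocount of 64 (0.03689), array weights (0.03855) and only the BCB and BBB groups in the fit (0.02028), and the range of its adjusted p over the other alternatives that keep all arrays was 0.1305 to 0.609.

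Both Obox2 probe sets leaned the same way as Obox3 without passing. The log2 difference of BCB against BBB was −0.31 (interval −0.50 to −0.12, adjusted p 0.2073) for 1456305_x_at and −0.21 (−0.38 to −0.04, adjusted p 0.5227) for 1456017_x_at. For Obox5 it was −0.02 (−0.23 to 0.19) and for Obox6 0.07 (−0.43 to 0.57), and the BCB and BBB arrays of these 2 genes overlapped.

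With amanitin, again 0 of 6 passed between BCB and BBB (0.113% of all probe sets did), and 3 had an unadjusted p under 0.05. Obox3 was at −0.35 (interval −0.56 to −0.13, adjusted p 0.2154), with 38.6 ± 4.09 in BCB and 53.6 ± 6.09 in BBB. All 4 BCB arrays lay below all 4 BBB arrays for Obox3, Obox1/Obox2 and both Obox2 probe sets, as 1.51% of probe sets did. The Obox1/Obox2 and Obox2 probe sets may read the same transcripts, so they do not count as separate observations. Obox6 was at 0.63 (0.13 to 1.13, adjusted p 0.3422), with BBB values so unequal (7.3 to 64.7) that array 3 of amanitin-treated BBB decided the call. Without it the difference was 1.003 (adjusted p 0.006937), and leaving out any other array gave 0.41 to 0.69, with no call.

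The amanitin effect did not pass a test of difference between the kinds in any of the 6 (adjusted p 0.7 to 0.9944), where 0.257% of all probe sets passed, and 0 had an unadjusted p under 0.05. The effect in BCB minus that in BBB was 0.01 (interval −0.30 to 0.31) for Obox3, −0.05 (−0.35 to 0.25) for Obox5 and 0.56 (−0.15 to 1.27) for Obox6, the least precise of the family.

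The order and overlap of the 4 groups differed between the members. For Obox3 the order from high to low was untreated BBB, untreated BCB, amanitin-treated BBB and amanitin-treated BCB, with no overlap between neighbours. For Obox6 the untreated groups overlapped each other, as did the treated ones. For Obox5 both treated groups were highest and overlapped, as did both untreated groups. For Obox1/Obox2 and Obox2 the order was amanitin-treated BBB, amanitin-treated BCB and then the untreated groups, which overlapped.

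Genes whose pattern over the 16 arrays was most like that of each member were taken by Pearson's r of log2(intensity + 16) among 14110 other genes, as a description. Since treatment sets most of the pattern, high values of r are common. Obox3 was most like Spz1, a transcription factor gene, Serp1, a membrane protein of the endoplasmic reticulum, and Kdm5b, a histone H3 lysine demethylase (each r = 0.997). Obox6 was most like Tgoln1, a Golgi protein (0.997), Adsl, an enzyme of purine synthesis, and Hmmr, a spindle protein (0.996 each). Obox5 was most like Ybx3, an RNA-binding protein, Bnc2, a zinc finger protein (0.997 each), and Cnot6l, a deadenylase of maternal mRNA (0.996). Obox1/Obox2 was most like Hdlbp, Txn2 and Csnk1e (0.996 each). Of the Obox2 probe sets, 1456017_x_at was most like Strbp, Olfr976 and Klhdc1 (0.997 each) and 1456305_x_at like Olfr976, Klhdc1 (0.995 each) and Chek1 (0.994).

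Related homeobox genes gave a mixed picture. Of 24 tested genes in a list of early homeobox genes, 14 rose, 5 fell and 5 did not pass with amanitin in BCB embryos, and 12 rose, 7 fell and 5 did not pass in BBB embryos (39.9% higher and 31.9% lower among all genes in BCB, 37.1% and 33.1% in BBB). The median change was 0.52 in BCB and 0.45 in BBB, against 0.17 and 0.11 over all genes. Crxos, a homeobox gene of the early embryo that lies beside the Obox cluster, fell with amanitin in both of its probe sets. The dimmer probe set fell less than Obox3, with log2 changes of −4.03 in BCB and −3.47 in BBB. Its treated signal was near the dim end of the arrays (means of 11.35 in BCB and 16.12 in BBB). The brighter probe set moved like Obox3. It had 47.5 ± 23.4 in treated and 2660.0 ± 244 in untreated BCB embryos (SD, n = 4 each) and 40.9 ± 15.9 and 1872 ± 98.6 in BBB, log2 changes of −5.48 and −5.10 (adjusted p 1.943e-16 and 7.394e-16). Crx, a photoreceptor homeobox gene and the neighbour of Crxos, was dim (means of 35.0 in BCB and 33.9 in BBB without amanitin) and fell, with changes of −1.01 and −0.60. Otx2, a head patterning gene, was dimmer still (19.0 and 18.9) and also fell (−0.98 and −0.90).

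Satb1, a chromatin organiser, had the smallest adjusted p among the homeobox risers in BBB embryos, with changes of 1.40 in BCB and 1.66 in BBB. In BCB embryos that place was held by Meis2, a TALE homeobox gene named after its values were seen, which rose by 1.81 in BCB and 1.82 in BBB (−0.06 and −0.03 with the poly-A controls). Among oocyte homeobox genes, Sebox, a maternal-effect gene, rose by 1.25 in BCB and 1.50 in BBB, Nobox, a regulator of oocyte genes, by 1.43 and 1.50, and Lhx8, needed for oocyte differentiation, by 0.69 and 0.77. Pou5f1, a pluripotency regulator, rose by 1.07 and 1.25. The split depended on the scale. It was 15 higher and 5 lower in BCB and 14 and 5 in BBB with quantile normalization, 6 and 7 in BCB and 8 and 10 in BBB with the hybridization controls, and 0 and 18 in BCB and 0 and 16 in BBB with the poly-A controls. With the poly-A controls Satb1, Sebox, Nobox, Lhx8 and Pou5f1 were all below 0 (−0.18 for Satb1 to −1.05 for Lhx8 in BBB, −0.38 for Nobox to −1.14 for Lhx8 in BCB), and with the hybridization controls Lhx8 was at −0.10 in BCB.

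**Figure D5:**
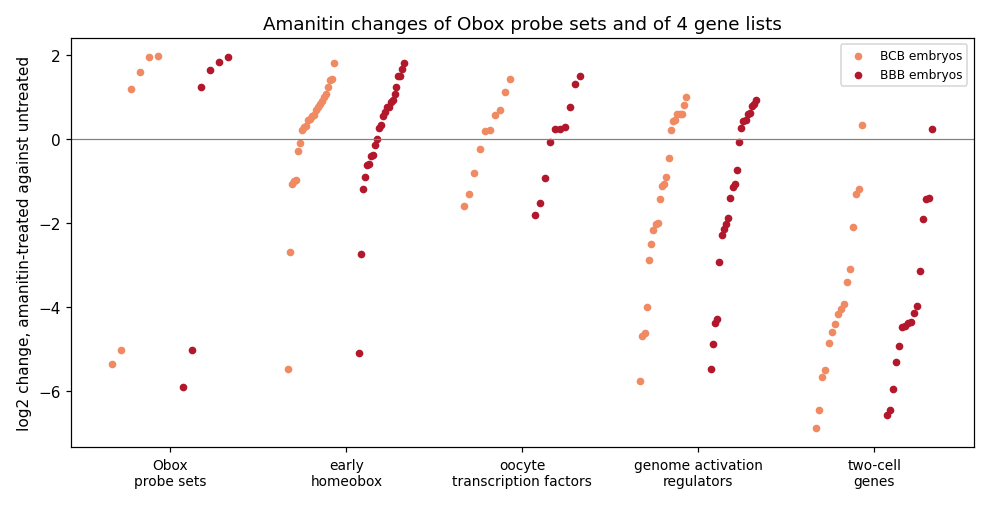
Log2 change with amanitin of each Obox probe set and of each tested gene in 4 lists, with BCB embryos left of BBB embryos in each column. The Obox family has 2 values below −5 and 4 between 1.20 and 1.97, and 15 of 16 two-cell genes lie below −1 in each kind.

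Oocyte transcription factors and regulators of genome activation were read from the same fit, and whether they act on Obox genes was not tested. Of 10 tested oocyte transcription factors, 5 rose and 3 fell in BCB and 4 rose and 3 fell in BBB (medians 0.21 and 0.24, against 0.17 and 0.11 over all genes), close to the shares over all genes given above. The smallest adjusted p in BBB embryos was that of Foxo3 among the risers, a forkhead factor of follicle dormancy (1.12 in BCB and 1.32 in BBB, with −0.74 and −0.53 scaled to the poly-A controls), and of Tbp, the TATA-binding protein, among the fallers (−1.60 and −1.51). Figla, a factor of zona pellucida genes, was at 0.23 and 0.30 and did not pass. It passed as higher in BBB with quantile normalization (0.39, adjusted p 0.02912) and median centring (0.39, adjusted p 0.02537), and as lower in both kinds with the poly-A controls (−0.61 in BCB, −0.68 in BBB, adjusted p 0.003702 and 0.001335, limma). Of 22 regulators of genome activation, 8 rose and 14 fell in BCB and 8 rose and 13 fell in BBB (medians −1.09 and −1.11). Kdm5b fell, with changes of −4.62 and −4.36. The splits were 2 higher and 5 lower in BCB and 2 and 4 in BBB for the oocyte factors with the hybridization controls, 0 and 9 in both kinds with the poly-A controls, and for the regulators 1 and 17 in BCB and 2 and 15 in BBB, and 0 and 21 in both.

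Smarca4, a chromatin remodeller of the oocyte, rose by 0.60 in BCB and 0.85 in BBB, but with the hybridization controls it was at −0.20 in BCB, and it was at −1.25 and −0.99 with the poly-A controls. Duxf3 (Dux), a homeobox activator of two-cell genes, rose by 1.01 and 0.94 from a dim signal (37.3 against 10.4 in BCB, 44.5 against 15.6 in BBB), and was at 0.00 and −0.22 with the poly-A controls. Nfya, a subunit of NF-Y, rose by 0.46 in both kinds, but fell below 0 with the hybridization controls (−0.33 in BCB and −0.08 in BBB) and the poly-A controls (−1.37 and −1.35). Nr5a2, a nuclear receptor, fell in BCB (−0.45, adjusted p 0.00914) and was at −0.07 in BBB (adjusted p 0.6924, limma). The BCB call was lost with quantile normalization (−0.30, adjusted p 0.07226), and in BBB it passed as lower with the hybridization controls (−0.61, adjusted p 0.004414) and the poly-A controls (−1.87, adjusted p 7.408e-11, limma).

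Genes of the two-cell stage fell too. Of 16 tested, 15 fell and 0 rose in each kind, with medians of −4.09 in BCB and −4.36 in BBB. Zfp352, a zinc finger gene of that stage, fell (−4.15 and −4.44), as did Calcoco2, an autophagy receptor (−6.88 and −6.57). The probe set that lists Zscan4c among several genes was at −4.01 in BCB and −3.48 in BBB. Between BCB and BBB none of the 4 lists had a call (limma), untreated (0.655% of all genes called), with amanitin (0.0786%) or in the interaction (0.255%). Crxos, the neighbour whose brighter probe set moved like Obox3 with amanitin, was at 0.50 in that probe set between untreated BCB and BBB (adjusted p 0.605). The dimmer Crxos probe set was at 0.325 (adjusted p 0.8483, limma).

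The arrays of a group correlated at 0.976 to 0.99 with each other, and treated with untreated arrays at 0.764 to 0.815. The mean intensity per array averaged 239 and 210.1 in treated and untreated BCB embryos and 241 and 210.2 in BBB. The probe sets of 18S ribosomal RNA were higher with amanitin by 1.63 in BCB and 1.26 in BBB, and the actin 3′ to 5′ ratio was lower (6.95 against 8.58 in BCB and 6.42 against 7.77 in BBB). All 12 oocyte and early embryo markers were tested, with a summed intensity of 27164 to 28461 in treated and 18783 to 20623 in untreated BCB embryos, and 28542 to 30900.4 and 18009 to 21329 in BBB. The 5 two-cell markers summed to 1127 to 1494 and 13720.2 to 15073 in BCB, and 1240 to 1827 and 12964 to 16209 in BBB. Of cumulus cell markers, 13 of 15 were on the arrays and summed to 545 to 613 and 2432 to 2826 in BCB and 510 to 619 and 2162 to 2557 in BBB. The untreated sums came mostly from Amhr2, which averaged 2410 in BCB and 2086 in BBB. With amanitin Amhr2 averaged only 59.4 in BCB and 58.9 in BBB, below Kitl at 153 and 163. Fshr, Inhba, Amh, Ptx3, Tnfaip6 and Hsd3b1 averaged under 20 in every group. Amhr2 was the 1 of 9 tested that fell (−5.01 in BCB and −4.84 in BBB), and 5 rose in BCB and 6 in BBB, Has2, Cyp11a1 and Kitl in both. With the poly-A controls Has2 was at 0.22 in BCB and −0.34 in BBB, Cyp11a1 at −0.21 and −0.65 and Kitl at −0.95 and −0.84, and with the hybridization controls Kitl was at −0.017 in BCB. The 6 sperm markers summed to at most 102 on any array, and the 6 blastocyst markers to 445 to 577 and 1238 to 1651 in BCB and 429 to 596 and 1269.9 to 1500.4 in BBB. The part of these shifts in the Obox values was not tested.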

How the data were processed

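Expression was measured in 16 samples of mouse two-cell embryos, 4 per group, with groups taken from the labels. A Picopure kit was used for extraction and an ENZO kit for biotin labelling, per the labels. The deposited values are intensities on a linear scale. Which software and which scaling of the arrays, if any, were used is not stated in the sources at hand. No sample column was left unused (0), and no pair of arrays held identical values. The number of arrays limits the precision.

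Probe sets were named through the platform annotation, with symbols updated through Entrez identifiers. Of the 45037 that are not controls (64 are), 34945 have 1 symbol, 932 several and 9160 none. Values were taken as log2(intensity + 16), so a fold change of a dim probe set is understated. A probe set was tested where 4 or more of the 16 arrays had it at or above their own 40th percentile, which left 31953 probe sets and 15274 genes. A gene in a list was read from the brightest of its tested probe sets, and a cell type marker from its brightest probe set, also one listing several genes. All 16 arrays entered 1 model of 4 group means in limma 3.58.1 (R 4.3.3) with an intensity trend, 5 contrasts and Benjamini-Hochberg adjustment over all probe sets tested, which was also tested on simulated data.

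The members, gene lists and tests were chosen with earlier results of these data known. Named were all Obox probe sets, the 3 genes most like each, the most significant riser and faller of each list in BBB embryos, and Crxos, Crx, Otx2, Sebox, Nobox, Figla, Lhx8, Duxf3, Nfya, Nr5a2, Zscan4c, Zfp352 and Pou5f1. Promoters and gene order came from RefSeq (GRCm38.p6), of which 5 Obox promoters were listed. Alternatives were quantile normalization, median centring, scaling to 9 hybridization or 12 poly-A control probe sets, pseudocounts of 1 and 64, no filter or one at the 60th percentile, a replicate block, only the groups compared, no trend, array weights and leaving out each array in turn.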

Additional observations from a re-analysis of the deposited data

How the results depend on the processing

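Scaling decided the direction of the 4 Obox probe sets that were higher with amanitin. Scaled to the poly-A controls, the calls were 3 of 6 in each kind, with 0 higher and 3 lower. Obox5 was at −0.68 in BCB and −0.61 in BBB, Obox1/Obox2 at −0.28 and −0.21, and 1456305_x_at at −0.016 in BBB (0.10 in BCB). In BCB against BBB, 1 of 6 passed in place of 0 (Obox3, lower) with quantile normalization, a pseudocount of 64, array weights and only the groups compared. The cause of these changes was not tested. Small differences that changed sign without a call were, in BCB against BBB, Obox5 (0.11) and Obox1/Obox2 (0.012) with the hybridization controls and Obox6 (−0.047) with the poly-A controls. In the interaction they were Obox3 (−0.012) and Obox1/Obox2 (0.015) with quantile normalization, Obox3 and 1456017_x_at (−0.07 each) with median centring, Obox3 (−0.18), 1456017_x_at (−0.24) and 1456305_x_at (−0.12) with the hybridization controls, 1456017_x_at (−0.008) with the poly-A controls, and Obox3 (−0.10) with a pseudocount of 1.

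Leaving out each array gave 6 to 6 calls for amanitin in each kind, 0 to 0 for BCB against BBB and for the interaction, and 0 to 1 for amanitin-treated BCB against BBB. The changes that crossed 0 were Obox5 in BCB against BBB (−0.117 to 0.076) and, in the interaction, Obox5 (−0.143 to 0.05), Obox3 (−0.037 to 0.063), Obox1/Obox2 (−0.134 to 0.033) and 1456017_x_at (−0.069 to 0.064). The labels give no pairing by replicate number, and none was seen in the values, which does not exclude one. Deviations of the 24 same-numbered pairs correlated at −0.09 to 0.11 (1 above 0.1), and 4 of 16 arrays were best matched by their own number. With the replicate number as a block, the calls were 6 and 6 for amanitin and 0 in the other 3 comparisons, as without it. Signal near the dim end limits the size of the Obox6 and Obox3 falls, which were −4.49 and −4.14 in BCB and −4.69 and −4.29 in BBB with a pseudocount of 64.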

Other observations

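Within groups, the Obox probe sets varied together to different degrees. As deviations of log2 intensity from the 4 group means over the 16 arrays, the Obox2 probe sets correlated at 0.951 with each other, and Obox5 with Obox1/Obox2 at 0.932. Obox5 correlated with 1456017_x_at at 0.684 and with 1456305_x_at at 0.706. Obox3 correlated with Obox6 at −0.293 and with Obox5 at 0.538. The deviations of Obox6 came mainly from amanitin-treated BBB embryos, where some of its values were near the dim end. The SD of its log2 values was 0.835 there, against 0.123 to 0.147 in the other groups, so its correlation rests mainly on that group. These are descriptions over the same arrays, and no p was computed.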
